A study of Mus musculus with 18 samples.

Results

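Unexposed mouse embryonic stem (ES) cells were read by a pair of library methods, and the data below compare them gene by gene. RNAome libraries were made from total RNA depleted of ribosomal RNA and fragmented, with adapters from a small RNA kit ligated to the fragments. mRNA libraries were made with the TruSeq mRNA kit, which selects RNA with a poly(A) tail. Members were the RefSeq entries, protein-coding (NM) or non-coding (NR), listed in both long RNA count tables, with 1 entry per gene, the one with the highest mean level over the 6 control libraries. The rule gave 13252 genes, 12696 on NM and 556 on NR entries, of 14969 genes with a RefSeq entry in either table. The RNAome table alone listed 409 genes and the mRNA table alone 1307.

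The RNAome control group and the mRNA control group each held 3 libraries, from the same samples 8.4.16, 8.5.16 and 8.6.16. The cells of every group were HPRT-deficient ES cells of the C57BL/6 strain at passages 19 to 22, grown on feeder cells and then for a last passage on gelatin, and the control cells were given DMSO, the vehicle of cisplatin. HPRT, the purine salvage enzyme, was lacking in every group. Cisplatin groups of 3 libraries per method, given 2.5 µM cisplatin, entered only a check in further samples. Whether the 3 codes stand for separate cultures is not stated, so the p-values here speak of the spread among these libraries, which may be technical. Method and library preparation were the same factor, so a difference here is between whole protocols.

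Most mRNAs end in a poly(A) tail, which protects them and is used to fish them out of total RNA. Some RNAs carry none. Replication-dependent histone mRNAs end in a conserved stem-loop and are made in S phase, which takes up much of the short cycle of ES cells. Small nucleolar RNAs (snoRNAs) are cut from introns and guide chemical modification of ribosomal and other RNAs. C/D box snoRNAs guide 2′-O-methylation and H/ACA box snoRNAs pseudouridylation.

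Sequences of snoRNAs and of histone genes from both ends of the histone range, replication-dependent and variant, are shown for what their RNA ends look like. They were read from NCBIM37, the assembly of mm9, within GENCODE vM1 gene models. The first lines give the histone stem-loop, in capitals, with 5 bases on each side, for H4c4 (chr13:23673814-23673839, plus strand), H4c8 (chr13:23623322-23623347, plus), H1f4 (chr13:23713646-23713671, minus) and the variant gene H2ax (chr9:44143318-44143343, plus).
H4c4: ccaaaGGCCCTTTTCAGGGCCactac
H4c8: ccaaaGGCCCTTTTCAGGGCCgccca
H1f4: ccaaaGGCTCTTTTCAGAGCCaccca
H2ax: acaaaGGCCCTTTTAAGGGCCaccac

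The next lines give 30 bases near the 3′ end of variant histone genes that are known to be polyadenylated, with the poly(A) signal hexamer in capitals. They are H2aj (chr6:136758560-136758589, plus), H2az1 (chr3:137529849-137529878, plus) and H3f3a (chr1:182730967-182730996, minus).
H2aj: gcaaaaaggacaAATAAAgaatatattaca
H2az1: ctctgcttactaATTAAAcagtgcatctgt
H3f3a: aatttgaaaaatAATAAAagtaccaataga

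The last lines give whole snoRNAs, single-exon genes. In the C/D box snoRNAs Snord83b (chr15:79908928-79909021, minus), Snord2 (chr16:23109026-23109094, plus) and Snord35a (chr7:52381716-52381805, minus) the capitals mark the C box core TGATG and the D box CTGA. In the H/ACA box snoRNA Snora68 (chr8:73419658-73419788, minus) they mark the ACA box.
Snord83b: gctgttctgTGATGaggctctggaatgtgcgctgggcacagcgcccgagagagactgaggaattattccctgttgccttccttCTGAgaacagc
Snord2: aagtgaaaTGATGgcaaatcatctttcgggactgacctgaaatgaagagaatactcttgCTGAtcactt
Snord35a: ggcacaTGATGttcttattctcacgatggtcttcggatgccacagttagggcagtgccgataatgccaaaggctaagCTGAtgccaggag
Snora68: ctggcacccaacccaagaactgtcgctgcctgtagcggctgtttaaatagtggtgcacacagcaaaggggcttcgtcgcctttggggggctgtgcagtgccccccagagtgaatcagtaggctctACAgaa

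The methods spread their counts differently. The member genes held 2136055, 4776327 and 2924740 counts in RNAome libraries 8.4.16, 8.5.16 and 8.6.16, against 9308997, 14533687 and 12233672 in the mRNA libraries, which was 4.71% to 6.95% of each RNAome table and 45.7% to 46.2% of each mRNA table. Non-coding entries took 57.6% to 67.1% of member counts in RNAome libraries and 3.23% to 3.28% in mRNA libraries. A single entry, NR_002840, which the gene table used here does not pair with a symbol, took 29.1% to 32.5% in RNAome libraries and 0.0121% to 0.0144% in mRNA libraries. A tested gene had a median of 18.7 counts per RNAome library and 362.3 per mRNA library. RNAome library 8.4.16 stood apart, with 8.51% of member counts on Lars2, the gene of mitochondrial leucyl-tRNA synthetase, against 2.09% and 2.48% in the other RNAome libraries.

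Of 12202 genes with enough counts to test, 2887 were higher and 3084 lower in RNAome libraries than in mRNA libraries (edgeR's quasi-likelihood test, Benjamini-Hochberg adjusted p under 0.05), so 23.7% and 25.3% are the background shares for the counts below. Higher by 4-fold or more were 325 genes (2.66%) and lower by 4-fold or more 403 (3.3%). Libraries of the methods did not overlap for 2647 of the 2887 higher and 2978 of the 3084 lower genes. The share over all tested genes was not counted. Genes not called could be without overlap too, as Actb and Fbn1 were (adjusted p = 0.212 and 0.157 by edgeR). The counts without overlap therefore add no support to the calls. Levels are given as CPM, counts scaled to a common library total that was rescaled by TMM, edgeR's trimmed mean of M-values, so that most genes centre near 0. The median log2 fold change, RNAome over mRNA, was -0.06 over all tested genes, -0.08 over NM entries and 0.32 over NR entries. With library totals in place of TMM the median moved to -2.37 and the calls to 201 higher and 11748 lower, so directions below are relative to the typical gene. Without sample 8.4.16 in both methods 2725 genes were higher and 2845 lower. Replicate libraries varied by 18.6% (biological coefficient of variation) in RNAome and by 6.37% in mRNA sequencing, or by 3.61% without mRNA library 8.6.16. Across genes, mean log2 levels of the methods had a Pearson correlation of 0.80 and a Spearman correlation of 0.86 over 12202 genes, a description over genes that share libraries.

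**Figure D1:**
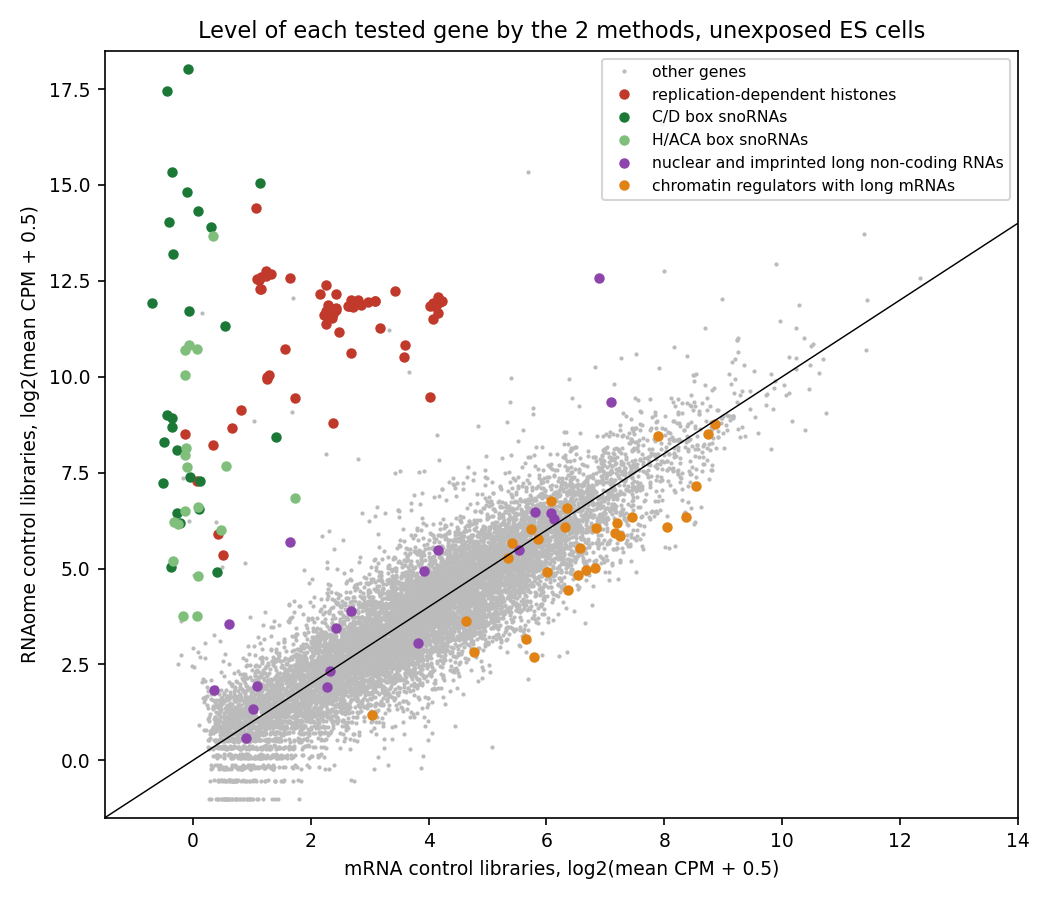
Each point is a tested gene, with its mean level over the 3 RNAome control libraries on the vertical axis and over the 3 mRNA control libraries on the horizontal axis, both as log2(CPM + 0.5). The line marks equal levels, and replication-dependent histones and snoRNAs lie far above it while most chromatin regulators with long mRNAs lie below.

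C/D box snoRNAs held the highest fold changes of all genes. All 26 tested members were higher in RNAome libraries by 4-fold or more, with a median log2 fold change of 10.9 against -0.06 over all genes, and all 26 stayed higher with library totals (median 8.55). Snord83b (NR_028282), hosted by Rpl3, had 171266, 410034 and 206458 counts in RNAome libraries, against 6, 6 and 6 in mRNA libraries. Its log2 fold change was 19.54 ± 0.51 (SE, adjusted p = 8.02e-14). Every RNAome library lay above every mRNA library by several orders of magnitude. Snord83b and other members with few mRNA counts, such as Snord15b (3, 4 and 2), passed the count filter through the RNAome libraries alone. The size of such fold changes rests on a handful of mRNA counts. The same holds for members of the lists below with as few mRNA counts.

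Snord2 (NR_030705), hosted by Eif4a2, had 255034, 634564 and 283906 counts in RNAome libraries, against 7, 14 and 15 in mRNA libraries (log2 fold change 19.15 ± 0.53, adjusted p = 1.48e-13). The cluster of Snord32a, Snord33, Snord34 and Snord35a on chromosome 7, known to lie in introns of the ribosomal protein gene Rpl13a, was higher throughout. Snord35a had 36304, 49288 and 32733 counts in RNAome libraries, against 10, 12 and 12 in mRNA libraries. Its mean level was 28842 ± 9582 CPM in RNAome libraries and 0.433 ± 0.057 CPM in mRNA libraries (SD, n = 3 each). Log2 fold changes of the cluster ran between 14.32 for Snord33 and 16.02 for Snord35a. No library of one method reached into the range of the other, which was a condition for naming these genes.

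Other C/D members near the top were Snord45c (17.09), Snord52 (15.14), Snord15b (14.96) and Snord96a (14.32). The member with the smallest difference still reached 5.17. C/D snoRNAs made up 23.8% to 29.9% of member counts in RNAome libraries and 0.00285% to 0.00318% in mRNA libraries. SnoRNAs are multicopy or lie inside host transcripts, so reads of a host pre-mRNA and its snoRNA cannot always be told apart in these counts.

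H/ACA box snoRNAs, longer and less abundant in the counts, were also all higher. All 19 tested members were higher by 4-fold or more, with a median log2 fold change of 7.79 (5.47 with library totals, again 19 of 19 higher). Snora68 (NR_002901) had 12078, 29375 and 16144 counts in RNAome libraries, against 18, 18 and 23 in mRNA libraries (log2 fold change 14.08 ± 0.37, adjusted p = 8.05e-14). Snora52 followed at 11.28, Snora7a at 9.24, Snora64 at 8.81 and Snora61 at 7.74. Their share of member counts was 0.865% to 1.01% in RNAome libraries and 0.0024% to 0.0028% in mRNA libraries. Snora52, with 8, 13 and 12 mRNA counts, passed the count filter through the RNAome libraries alone. The RNAome table listed 69 C/D, 35 H/ACA and 9 Cajal body RNA genes, against 26, 19 and 0 in the mRNA table.

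Other short structured RNAs had the same direction. Rmrp (NR_001460), the RNA of the MRP ribonuclease, had 2460, 8135 and 4199 counts in RNAome libraries, against 27, 6 and 9 in mRNA libraries (log2 fold change 12.52 ± 0.49, adjusted p = 6.14e-12). In the mRNA libraries the highest value was that of 8.4.16, and without that library the fold change was 13.60. Rnu7 (NR_024201), the U7 small nuclear RNA that takes part in histone 3′ end cutting, had 74, 166 and 86 counts in RNAome libraries, against 138, 235 and 222 in mRNA libraries. Scaled for depth this was 74.8 ± 19.5 CPM in RNAome libraries and 7.39 ± 0.785 CPM in mRNA libraries (log2 fold change 3.33 ± 0.18, adjusted p = 4.48e-10). Of the list of polymerase III, ribozyme and spliceosomal RNAs, these 2 were in both tables and 8 in the RNAome table.

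Replication-dependent histones were the other group that stood wholly on the RNAome side. All 63 tested members were higher by 4-fold or more, with log2 fold changes of 5.47 to 13.7 and a median of 9.12, or 6.81 with library totals, where all 63 again were higher. H4c4 (NM_175654, chr13:23673467-23673859, plus strand, a single-exon gene) encodes histone H4. It had 14204, 48360 and 37389 counts in RNAome libraries, against 32, 61 and 36 in mRNA libraries. Its mean level was 21682 ± 5764 CPM in RNAome libraries and 1.59 ± 0.279 CPM in mRNA libraries (SD, n = 3 each), with a log2 fold change of 13.72 ± 0.38 (adjusted p = 1.48e-13). The lowest RNAome library was 8.4.16 and it still lay far above every mRNA library, and in the abundance tables the fold change was 14.99.

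Further H4 genes were close to one another. H4c8 had 5542, 14825 and 10478 counts in RNAome libraries, against 43, 66 and 39 in mRNA libraries, and H4c2 had a log2 fold change of 11.67 beside 11.85 for H4c8. The linker histone gene H1f4 (NM_015787) had 135, 293 and 260 counts in RNAome libraries, against 10, 22 and 13 in mRNA libraries (log2 fold change 8.10 ± 0.16, adjusted p = 1.61e-14), the smallest adjusted p of the list. H1f3, also a linker histone gene, reached 8.61 ± 0.18. The other linker genes of the list, given to complete the class, were H1f1 at 8.80, H1f2 at 7.95 and H1f5 at 9.80. Many histone genes resemble each other closely, which makes values of single members uncertain. All 61 members tested in the authors' abundance tables were higher (median 9.16).

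The 3′ ends of the histone genes were read with a motif search. The histone stem-loop consensus was looked for in the 100 genomic bases after the stop codon, on the gene's strand, and was found in 56 of the 60 replication-dependent histones with an annotated stop codon. Over all 11309 tested genes with a stop codon it was found in 57, and the remaining match was H2ax. The 57 genes with a match had a median log2 fold change of 9.22 and the 11252 without one -0.08. A match is a description of these letters in this window, and no match says nothing of the gene's processing.

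Histone variants that are known to be polyadenylated split in direction. Of 11 tested, 4 were higher and 6 lower in RNAome libraries (median log2 fold change -0.47), while with library totals 1 was higher and 10 lower. Without sample 8.4.16, 3 were higher and 5 lower. H2aj (NM_177688), an H2A variant gene, had 100, 426 and 325 counts in RNAome libraries, against 280, 527 and 306 in mRNA libraries. Its mean was 181.1 ± 65.5 CPM in RNAome libraries and 13.7 ± 2.49 CPM in mRNA libraries (log2 fold change 3.76 ± 0.21, adjusted p = 1e-09), and it was higher also with library totals (1.45) and in the abundance tables (2.29).

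H2ax, the variant phosphorylated at DNA breaks, carries the stem-loop shown above and a poly(A) signal. It had 273.0, 444.1 and 362.7 CPM in RNAome libraries, against 152.2, 165.7 and 122.7 CPM in mRNA libraries (log2 fold change 1.30 ± 0.17, adjusted p = 1.71e-05). In the abundance tables the value was 0.20 and no longer past the threshold, and with library totals it was -0.9997. H2az1, the H2A.Z gene, was higher by 1.11 ± 0.16 (-1.18 with library totals). The H3.3 genes went the other way: H3f3a was lower, at 25.6 ± 11.5 CPM in RNAome libraries and 100.9 ± 5.49 CPM in mRNA libraries (log2 fold change -1.89 ± 0.19, adjusted p = 1.18e-06), and H3f3b was lower by -0.89 ± 0.14 (adjusted p = 6.5e-05). None of the RNAome libraries overlapped the mRNA libraries for either H3.3 gene.

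**Figure D2:**
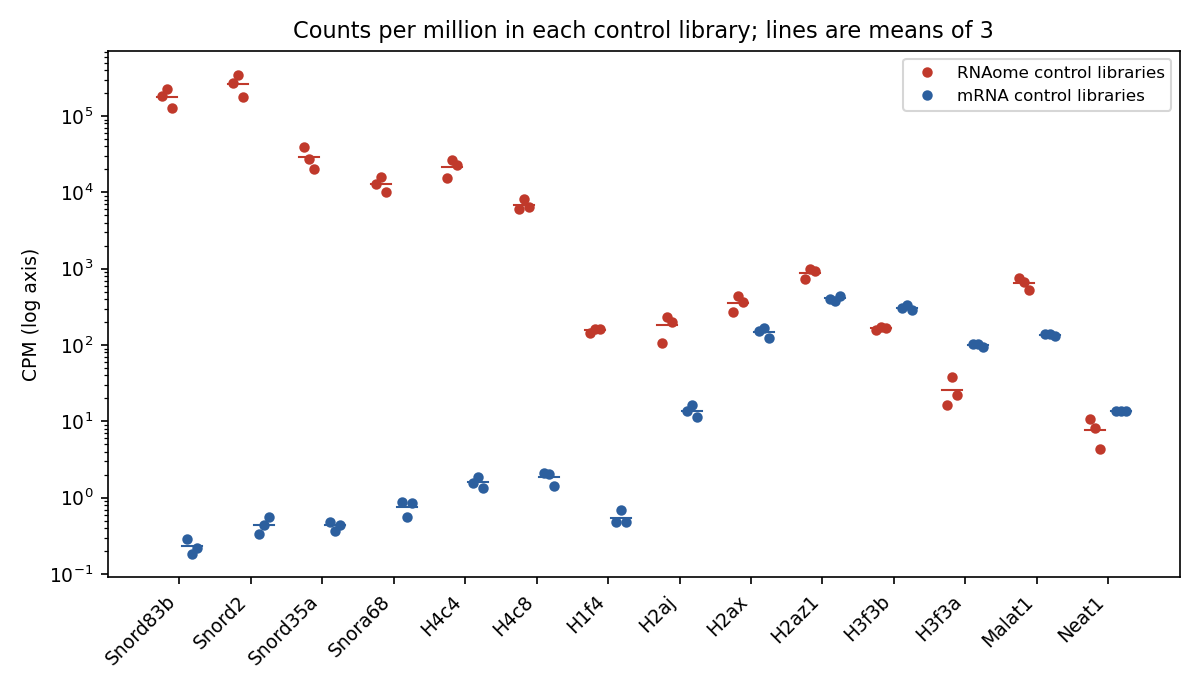
CPM on a log axis for named members in each of the 3 RNAome (left, red) and 3 mRNA (right, blue) control libraries, with lines at the means. The snoRNAs and H4 and H1 histones sit orders of magnitude higher in RNAome libraries, H3f3a and H3f3b sit lower, and Malat1 is higher while Neat1 is lower.

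MicroRNA precursor genes gave a mixed picture. Of 16 tested members 8 were higher and 2 lower (median log2 fold change 0.73), while with library totals 3 were higher and 11 lower. Without sample 8.4.16, 8 of 17 were higher and 3 lower, with a median of 0.20. Most precursor genes were not in both tables: 121 were listed in RNAome and 28 in mRNA sequencing, and 18 in both. The leading members were neighbours in the ES cell microRNA cluster on chromosome 7, and their mature products share a seed, bases 2 to 8, in capitals below (RefSeq, from a table of assembly GRCm38.p6).
mmu-miR-294-3p: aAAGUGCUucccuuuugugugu
mmu-miR-295-3p: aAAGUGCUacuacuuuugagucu

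Mir295 had 53, 189 and 95 counts in RNAome libraries, against 21, 19 and 22 in mRNA libraries (log2 fold change 6.59 ± 0.26, adjusted p = 8.23e-12). Mir294 had 26, 62 and 35 counts in RNAome libraries, against 12, 14 and 14 in mRNA libraries (5.78 ± 0.27, adjusted p = 7.65e-11). Mir1949 was higher by 4.96 ± 0.35 and Mir682 by 1.89 ± 0.12, the second of these at -0.39 with library totals. The list also takes in the long host transcripts Mir17hg (1.33, adjusted p = 3.18e-06), which counts again among the long non-coding RNAs below, and Mir22hg (-0.79, adjusted p = 0.405). The other members are precursor genes in the long RNA tables, and none of these counts are levels of mature microRNAs.

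The list of snoRNA host genes, which holds Snhg genes, Dancr and Nop56 and not the ribosomal protein genes that host snoRNAs, was mostly higher. Of 11 tested host genes 10 were higher and 0 lower (median log2 fold change 1.02), and with library totals 3 were higher and 8 lower. Snhg8 had 1742, 6575 and 2582 counts in RNAome libraries, against 201, 329 and 239 in mRNA libraries (7.95 ± 0.33, adjusted p = 1.39e-11). Dancr (5.14 ± 0.20) and Snhg16 (3.10 ± 0.26, or 2.18 with counts summed over all entries of the gene) followed. Nop56, a core protein of C/D particles that also hosts snoRNAs, was at 439.3 ± 26.4 CPM in RNAome libraries and 193.0 ± 7.49 CPM in mRNA libraries (1.19 ± 0.13, adjusted p = 2.97e-06, and -1.11 with library totals). Small RNA genes overlap an exon of some GENCODE vM1 transcript model of Dancr, Nop56, Snhg1, Snhg3, Snhg7, Snhg12, Snhg16, Snhg17 and Snhg20. That model need not match the counted entry. Snhg16 had 84, 250 and 72 counts in RNAome libraries, fewer than the 37951, 87060 and 43701 of Snord1b, which is listed with it. Snhg8, the other called host gene, had no matched GENCODE vM1 model, so it could not be assessed. The part of small RNA reads in these counts was not tested.

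Nuclear and imprinted long non-coding RNAs were mostly higher. Of 19 tested, 12 were higher and 1 lower (median log2 fold change 1.05), while with library totals 3 were higher and 14 lower. Leaving out single libraries gave 8 to 12 higher, with 8 when RNAome library 8.5.16 was left out. Rian (NR_028261), an imprinted transcript of chromosome 12 that carries snoRNAs, had 5938, 8052 and 4444 CPM in RNAome libraries, against 118.4, 129.6 and 106.9 CPM in mRNA libraries (5.70 ± 0.26, adjusted p = 4.37e-11). Kcnq1ot1, an antisense transcript of an imprinted region, was higher by 4.25 ± 0.21, and Gnasas1, antisense at the Gnas locus, by 3.49 ± 0.32. Whether the counting used strand is not stated, so antisense and sense reads of these loci may not be separated.

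Malat1 and Neat1, adjacent nuclear RNAs on chromosome 19, differed in direction. Malat1 (NR_002847, chr19:5795690-5802671, minus strand), a nuclear speckle RNA whose 3′ end is a triple helix rather than a poly(A) tail, had 753.3, 663.3 and 524.8 CPM in RNAome libraries, against 138.4, 141.8 and 130.1 CPM in mRNA libraries. Its log2 fold change was 2.24 ± 0.16 (adjusted p = 1.89e-08) and -0.07 with library totals. Neat1 (NR_003513), the paraspeckle RNA, had 10.8, 8.24 and 4.33 CPM in RNAome libraries, against 13.7, 13.6 and 13.7 CPM in mRNA libraries (-0.89 ± 0.26, adjusted p = 0.00933). Neat1 rests on 7 to 15 RNAome counts per library, and without RNAome library 8.6.16 its value was -0.57 and not past the threshold. The groups did not overlap for either RNA. Meg3, Xist and Norad did not pass the test.

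Pluripotency genes, which define the ES cell state, did not move as a block. Of 30 tested, 5 were higher and 12 lower (median log2 fold change -0.24), while with library totals 30 of 30 were lower. Sox2, a core factor on a single exon, was higher, at 478.5 ± 51.4 CPM in RNAome libraries and 173.5 ± 3.94 CPM in mRNA libraries (1.46 ± 0.14, adjusted p = 5.07e-07, and -0.83 with library totals). Gdf3, a TGF-β family ligand gene, was higher by 1.09 ± 0.11 (-1.21 with library totals). Klf4 was lower, with 11, 16 and 23 counts in RNAome libraries against 1371, 2012 and 1756 in mRNA libraries (-2.49 ± 0.18, adjusted p = 2.02e-08). Utf1, a chromatin protein of ES cells, was lower by -2.13 ± 0.19. Pou5f1 had 496.4, 501.8 and 539.1 CPM in RNAome libraries and 536.0, 532.2 and 531.0 CPM in mRNA libraries (-0.06 ± 0.14, adjusted p = 0.765), and Nanog was at 0.38 ± 0.16 (adjusted p = 0.0563, and 0.53 past the threshold without RNAome library 8.4.16).

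The cell label was checked with markers. All 10 ES cell markers were tested, 1 higher and 4 lower, and together they held 0.0964% to 0.144% of member counts in RNAome libraries and 0.607% to 0.632% in mRNA libraries. Of 12 feeder fibroblast markers, 7 were in the RNAome table and 10 in the mRNA table. The 7 in both held 0.00147% to 0.00201% of member counts in RNAome libraries and 0.0124% to 0.0148% in mRNA libraries. Markers in the mRNA table alone, Col1a1 among them, are not part of these shares. Of the 6 tested, Acta2 alone was called, lower by -0.68 ± 0.15 (adjusted p = 0.00113), and in the abundance tables at 0.06. Actb, the cytoskeletal actin gene, was at 1427 ± 82.9 CPM in RNAome libraries and 1210 ± 6.64 CPM in mRNA libraries (0.24 ± 0.15, adjusted p = 0.212). Gapdh (-0.06 ± 0.15) and the elongation factor gene Eef1a1 (0.23 ± 0.19) did not pass the test either.

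Housekeeping mRNAs varied gene by gene. Of 87 cytosolic ribosomal protein genes 33 were higher and 28 lower (median log2 fold change 0.12), and with library totals 1 was higher and 85 lower. Without RNAome library 8.5.16 the median was -0.07, with 30 higher and 31 lower, and without RNAome library 8.4.16 it was 0.24, with 39 higher and 29 lower. Rps3a1 was at 4208 ± 1291 CPM in RNAome libraries and 506.5 ± 9.24 CPM in mRNA libraries (3.06 ± 0.22, adjusted p = 2.11e-08). Rps15a was higher by 2.32 ± 0.20 (-0.02 with library totals, 3.23 in the abundance tables). Rpl7a was lower, with 2, 9 and 7 counts in RNAome libraries against 984, 1624 and 1505 in mRNA libraries (-3.63 ± 0.24, adjusted p = 7.6e-09), as was Rps2 (-2.01 ± 0.16). Ribosomal protein genes have many processed copies, and reads could have been split between copies differently in each table, so single members are uncertain.

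Respiratory chain subunits leaned higher, with 36 of 78 higher and 12 lower (median log2 fold change 0.31), while with library totals 0 were higher and 74 lower. Ndufa2, a complex I subunit gene, was at 94.9 ± 7.46 CPM in RNAome libraries and 24.6 ± 1.17 CPM in mRNA libraries (1.97 ± 0.11, adjusted p = 1.1e-09). Ndufv2 (2.20), Ndufb5 (1.92) and Atp5md (2.00) were higher as well, and all of them were below 0 with library totals. Glycolysis enzymes had 5 of 18 higher and 4 lower, among them Gpi1 at -1.60 ± 0.16 and Pgam1 at -0.69 ± 0.14. Glycolysis calls were few: 2 were higher without RNAome library 8.5.16, 6 without 8.4.16 and 4 without 8.6.16. Without any one of the mRNA libraries 3 were higher, and 4 were lower in each case.

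Zinc finger genes with Zfp names were more often on the RNAome side. Of 330 tested, 126 were higher and 50 lower (median log2 fold change 0.39, with 4 higher and 318 lower with library totals). Zfp367 had 92.8, 101.7 and 79.8 CPM in RNAome libraries, against 11.7, 12.9 and 12.6 CPM in mRNA libraries (2.88 ± 0.12, adjusted p = 2.54e-11). Zfp518a was higher by 3.41 ± 0.21. Immediate early genes, transcribed within minutes of a stimulus, had 2 of 22 higher and 8 lower (1 higher and 5 lower without RNAome library 8.5.16, 4 higher and 8 lower without RNAome library 8.4.16), with Egr1 at -2.25 ± 0.30 and Ier2 at -1.60 ± 0.19. SR splicing factors and CLK kinases had 6 of 19 higher and 5 lower, with Srsf5 at 1.66 ± 0.17 and Srsf4 at -2.13 ± 0.19. With library totals no immediate early, SR or CLK gene was higher.

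Chromatin regulators with long mRNAs were the list furthest below the typical gene. Of 29 tested, 2 were higher and 19 lower, 8 of them by 4-fold or more (median log2 fold change -1.28, and all 29 lower with library totals). Setd1a, a histone H3 lysine 4 methyltransferase gene, had 8, 7 and 9 counts in RNAome libraries, against 1110, 1709 and 1558 in mRNA libraries. Its level was 6.02 ± 2.42 CPM in RNAome libraries and 54.7 ± 2.61 CPM in mRNA libraries (-3.31 ± 0.22, adjusted p = 7.89e-09). Arid1a, a subunit of the BAF remodelling complex, had 130.6, 48.9 and 62.5 CPM in RNAome libraries, against 331.6, 332.5 and 324.3 CPM in mRNA libraries (-2.11 ± 0.24, adjusted p = 3.51e-06). Among the RNAome libraries 8.4.16 was the highest for Arid1a, for Kmt2b (-2.17 ± 0.25) and for the acetyltransferase complex member Trrap (-1.82 ± 0.18), and no RNAome library overlapped the mRNA libraries. Without sample 8.4.16 in both methods the list again had 2 higher and 19 lower.

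**Figure D3:**
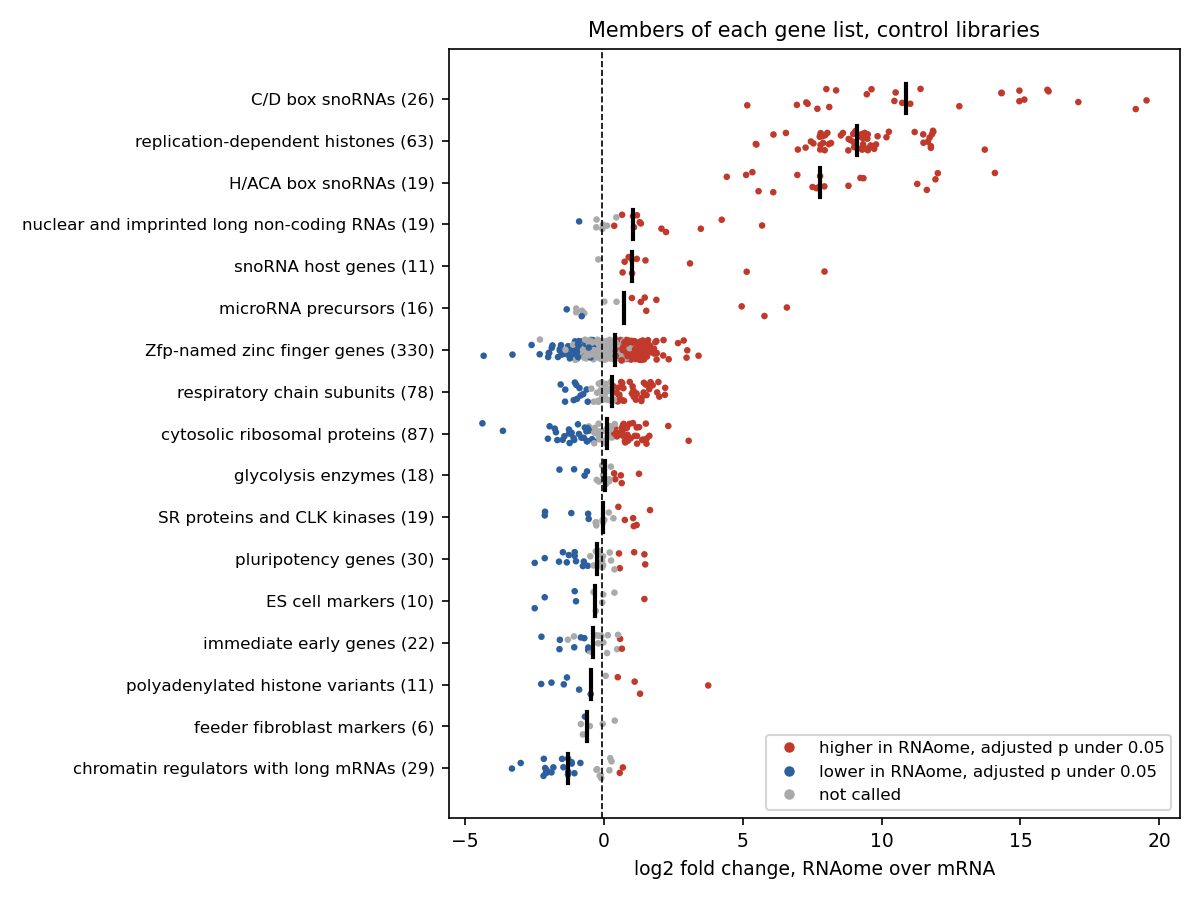
Log2 fold change, RNAome over mRNA, of each tested member of the lists with 5 or more members, with the number tested in brackets, black bars at list medians and a dashed line at the median of all genes, -0.06. Medians run between 10.9 for C/D box snoRNAs and -1.28 for chromatin regulators. On library totals each list lies lower, and only the snoRNA and replication-dependent histone lists keep medians above 0.

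The largest decreases were genes with next to no RNAome counts. Pet117, a mitochondrial assembly factor gene, had 0 counts in each RNAome library, against 61, 90 and 85 in mRNA libraries, which makes it at least 4.29-fold lower when a floor of 3 counts over the RNAome group is used. H2-Q1 (at least 3.27-fold), Txnrd2 (at least 3.13-fold) and Vgll3 (at least 2.96-fold) were likewise at 0. H2-Q1 was not past the threshold without RNAome library 8.5.16 or without 8.6.16. In all, 42 tested genes were at 0 in the 3 RNAome libraries, and all 42 were called lower. They passed the count filter through the mRNA libraries alone. Fitted fold changes of such genes are not printed because they depend on the prior count. In cisplatin libraries the log2 fold changes were -0.08 for Pet117 (adjusted p = 0.879 by edgeR), -0.80 for H2-Q1 (0.149) and -0.87 for Txnrd2 (0.115). Vgll3 was lower there too, at -1.80 (adjusted p = 0.00184 by edgeR).

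Others had 1 to 3 RNAome counts over the group. Creb3l1, a transcription factor gene, had 1 RNAome count and 484 mRNA counts, a level 26.4-fold lower in RNAome libraries with an exact 95% interval of 4.71 to 1044. Phf2, a histone demethylase gene, had 1 and 480 (26.2-fold, 4.67 to 1036). Rpl29 had 3 and 1152 (20.9-fold, 7.15 to 101.7), Zfp385a 2 and 748 (20.4-fold, 5.63 to 168.7), Fbrs 2 and 668 (18.2-fold, 5.02 to 150.7), Tpcn1 3 and 982 (17.8-fold, 6.09 to 86.7) and Mtfp1 1 and 332 (18.1-fold, 3.23 to 717.1). These intervals cover counting error only. Rfng, a glycosyltransferase gene of the Notch pathway, had 1, 1 and 4 counts in RNAome libraries, against 407, 640 and 653 in mRNA libraries (-3.94 ± 0.40, adjusted p = 9.39e-07, and -4.84 without RNAome library 8.6.16). Of the 3084 lower genes 412 had 10 or fewer RNAome counts over the group, so the size of a decrease is poorly known for them.

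Features of the transcript that the choice of members did not use went along with the difference. GENCODE vM1 models were found for 11541 tested genes (94.6%). Medians descended over the classes of GC content of the longest transcript, a feature chosen after its values were seen. The 515 genes of up to 40% GC had a median log2 fold change of 0.84, with 65.2% higher and 4.85% lower. The 3011 genes between 50% and 55% had a median of -0.26, with 13.5% higher and 30.9% lower. The 581 genes above 60% had a median of -0.79, with 9.81% higher and 44.8% lower.

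The order by GC was seen in each sample. The log2 of the median ratio was 0.68, 0.96 and 0.70 in samples 8.4.16, 8.5.16 and 8.6.16 for genes of up to 40% GC, and -0.63, -0.999 and -0.78 for genes above 60%. Among protein-coding entries of 2000 to 4000 bases the medians ran between 0.86 for up to 40% and -0.97 for above 60%. In the cisplatin libraries, which the control contrast does not use, the medians for all genes were 0.91 and -0.75 in these classes. Replication-dependent histones, all higher, had a median GC content of 59.5%, against 50.4% over all genes, so they lie on the other side of this order. The Zfp list had a median GC content of 44.8%, and chromatin regulators 49.8%.

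Length went along with the difference too, most of all in the shortest genes. Transcripts of 500 to 1000 bases had a median log2 fold change of 0.23, those of 2000 to 4000 bases -0.09 and those of 4000 to 8000 bases -0.22. The 51 genes of up to 200 bases, among them the snoRNAs, had a median of 8.12. Within protein-coding entries of 45% to 50% GC the medians were 0.55 for up to 1000 bases and -0.09 for 4000 to 8000 bases. The chromatin regulators, with a median length of 9030 bases, were lower than the genes above 8000 bases as a class, whose median was -0.17. A poly(A) signal, AATAAA or ATTAAA on the gene's strand, was in the last 50 bases of 8769 of the 11309 genes with a stop codon. Genes with it had a median of -0.09 and genes without it -0.05, with 22.98% and 23.19% higher.

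**Figure D4:**
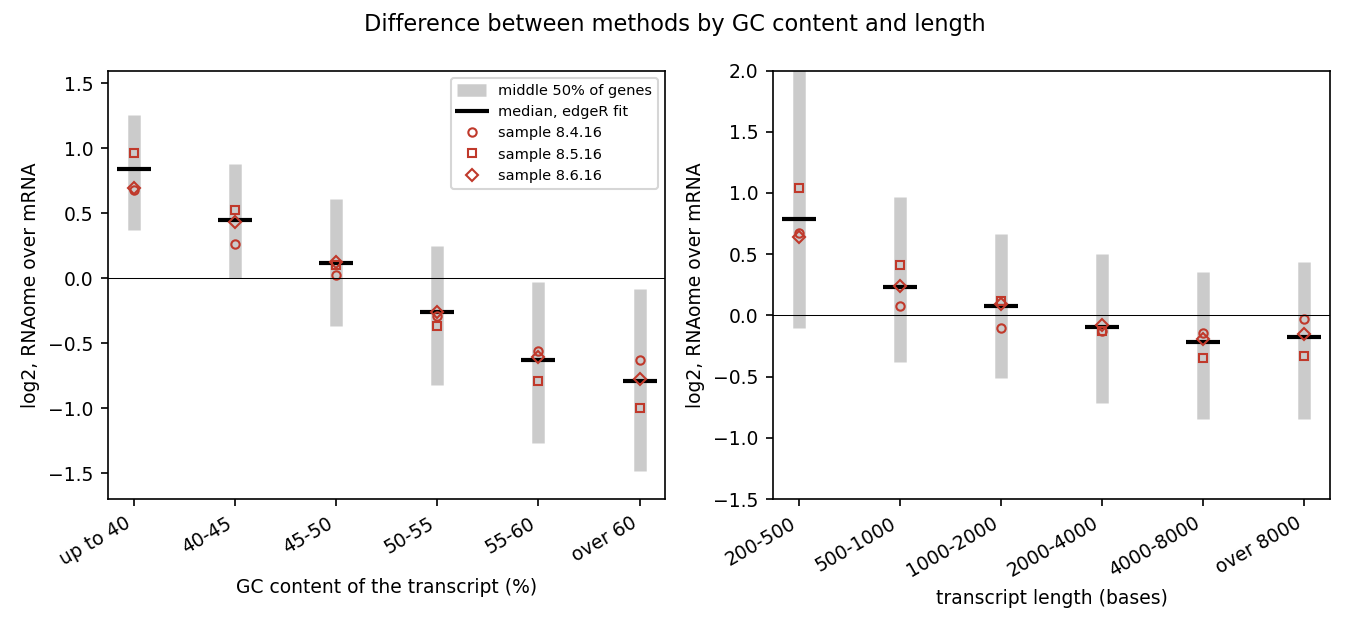
Medians of the log2 difference, RNAome over mRNA, by GC content (left) and by transcript length (right). Black bars are medians of the edgeR fit, grey bars the middle 50% of genes, and red symbols the log2 of the median CPM ratio in each sample. The medians descend between 0.84 and -0.79 over the GC classes. Over the lengths drawn, the median is 0.79 for 200 to 500 bases, whose grey bar runs past the axis to 6.33, and lies between 0.23 and -0.22 above 500 bases; genes of up to 200 bases (median 8.12) are not drawn.

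Counts on intron regions were set beside the counts on member entries, and the kind of RNA they come from was not tested. Regions in each table that coincide with a single gene's GENCODE vM1 introns, without an annotated small RNA gene inside, were summed per gene over 10017 tested genes. They held 445.8, 210.8 and 214.3 counts per 100 counts on the member entries of the same genes in RNAome libraries 8.4.16, 8.5.16 and 8.6.16, against 13.9, 13.6 and 13.3 in mRNA libraries. RNAome library 8.4.16 was far above the other RNAome libraries. Regions equal to an annotated intron numbered 46857 in the RNAome table and 28656 in the mRNA table before exclusions. The sums therefore cover unlike sets of regions. Per gene, the intron share was larger in RNAome than in mRNA libraries for 8634 of 10001 genes, with medians of 28.4 and 5.81 counts per 100. The summed values of the RNAome libraries lay far above their median, so they do not describe the typical gene. Genes lower in RNAome libraries had a median of 36.8 there, and genes higher had 16.5, against 4.28 and 6.11 in mRNA libraries. The denominator of this share is the count that the call rests on, so these values describe the genes and support no call.

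The method difference was then read in samples the control contrast did not use. In cisplatin libraries 12732 genes were tested, with 3919 higher and 3986 lower in RNAome than in mRNA libraries. Of the genes tested in both, 2717 of 2881 higher in controls were higher with cisplatin (94.3%), 2833 of 3083 lower were lower (91.9%), and 0 were called in opposite directions. Snord83b was at 19.54 in control and 21.14 in cisplatin libraries, H4c4 at 13.72 and 13.29, Sox2 at 1.46 and 1.38, and Klf4 at -2.49 and -2.60 on the log2 scale. Pet117, H2-Q1 and Txnrd2, lower in controls at 0 RNAome counts, were not called in cisplatin libraries. The difference of the contrasts between control and cisplatin libraries was tested as an interaction in edgeR, and 0 of 12869 genes were called, with 756 at an unadjusted p under 0.05. The median difference, control minus cisplatin, was 0.91 over the 63 replication-dependent histones, a group with no single call.

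**Figure D5:**
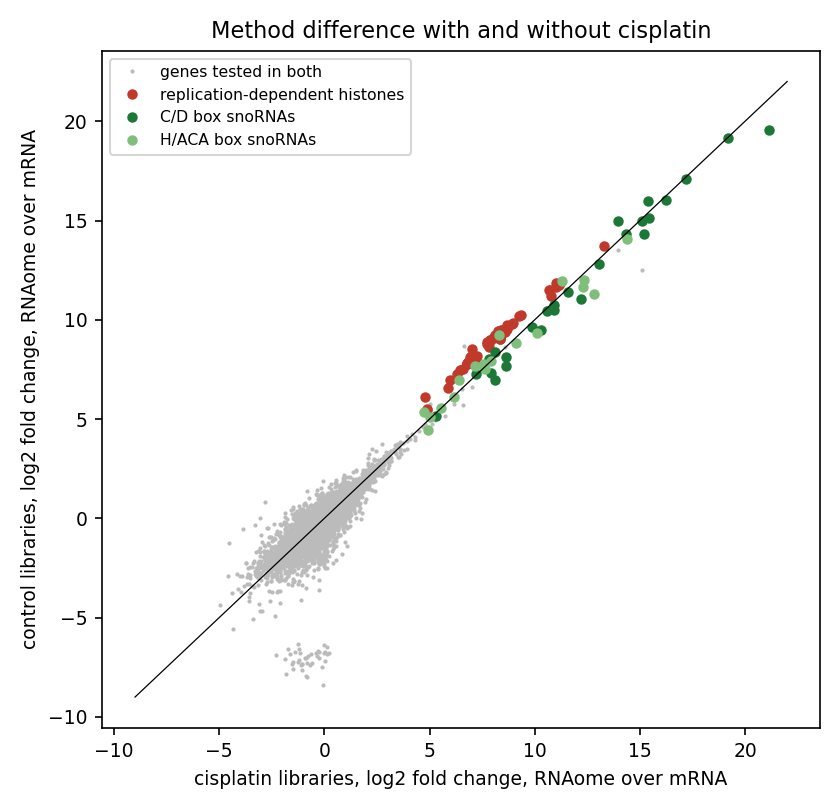
Log2 fold change, RNAome over mRNA, in control libraries (vertical) and in cisplatin libraries (horizontal) for genes tested in both, with the line of equality. SnoRNAs and replication-dependent histones lie far from 0 on both axes, the histones with a median difference, control minus cisplatin, of 0.91. The separate group near -7 in controls holds genes with 0 counts in the RNAome control libraries, whose fitted values are no measure of size.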

How the data were processed

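Raw read counts per feature, deposited by the authors without normalization, were used for RNAome and mRNA sequencing of control and cisplatin libraries. Per the submitters' processing notes, Bowtie, TopHat and edgeR were used on mm9, while the sources used here give neither a counting rule nor a strand setting. Region ends in the deposited tables did not exceed NCBIM37 chromosome lengths. Entries were named with a RefSeq gene table (GRCm38.p6, names only), and 388 of 13252 genes had no symbol there. 86 genes had the same counts as another gene in all 12 libraries.

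Genes were tested with edgeR 4.0.16 (R 4.3.3) by TMM, filterByExpr and the quasi-likelihood test, two-sided, with Benjamini-Hochberg adjustment over all tested genes, which applies to every adjusted p printed. DESeq2 1.42.0 was an alternative. The fit was run on simulated data, with both methods drawn from the mRNA composition at the same spread and few genes changed. The real libraries differ in composition and spread, so the simulation could not test the scaling used here. SE is the fold change divided by the root of the F statistic. Others tried were scalings, filters, tables, summed entries, a replicate block and single libraries left out. Same-coded libraries come from 1 sample, and their deviations correlated at 0.0536, 0.0789 and 0.129.

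Genes to name were taken as follows: 12 with the highest and 12 with the lowest fold change of the called genes, if mean log2 CPM reached 1 and groups did not overlap (clone and model symbols left out), up to 4 members per list by adjusted p, and a set of markers and controls. Members and lists were chosen with earlier results of these data known, and list patterns were reworded to current symbols after the files were seen. Small RNA tables were not used.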

Additional observations from a re-analysis of the deposited data

Results flagged for a closer look

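RefSeq entries that only the RNAome table lists were outside the comparison and held a large signal. They took 52.8% to 62.1% of RefSeq counts in the RNAome control libraries, whereas entries that only the mRNA table lists took 0.146% to 0.149% of RefSeq counts in the mRNA control libraries. Snord43 (NR_028281) had 940058, 3176514 and 1269103 counts in RNAome libraries 8.4.16, 8.5.16 and 8.6.16, and Snord55 had 534965, 1477519 and 784382. NR_035465, with no symbol in the gene table used, had nearly the same counts as Snord43 in each library, so the same reads may have been counted for both. Of these 481 entries 88 were snoRNA or Cajal body RNA genes and 103 microRNA genes. Rpph1, the RNA of ribonuclease P, had 2551, 10897 and 6721 counts, and Terc, the telomerase RNA, 2470, 4191 and 4624.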

How the results depend on the processing

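Library totals in place of TMM gave 201 genes higher and 11748 lower (1.68% of calls higher, against 48.4%). Named genes whose sign turned with library totals were H2ax (-0.9997), H2az1 (-1.18), Mir682 (-0.39), Nop56 (-1.11), Malat1 (-0.069), Sox2 (-0.83), Gdf3 (-1.21), Rps15a (-0.015), Ndufa2 (-0.33), Ndufb5 (-0.40), Ndufv2 (-0.12), Atp5md (-0.32), Eno3 (-1.05), Sgk1 (-1.63), Srsf5 (-0.67), Clk4 (-1.23), Zfp748 (-0.15), Pdgfrb (-1.92), Actb (-2.04), Eef1a1 (-2.05) and Nanog (-1.89). In the abundance tables Acta2 turned to 0.059. Other scalings, filters, tables and DESeq2 gave 2665 to 3166 genes higher and 2896 to 3323 lower. Leaving out single libraries gave 2317 to 3005 higher and 2309 to 3090 lower. The paired fit with a replicate block gave 2736 higher and 2986 lower in controls, and 3960 and 4051 in cisplatin libraries, and changed no call of the 96 named genes. The causes were not tested. RNAome depth per gene limits the decreases, and fold changes of genes with few counts are imprecise. Near-identical copies and unstated strand limit single genes.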

Other observations

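Genes with a small RNA gene overlapping an exon of any GENCODE vM1 transcript model were looked at as a further group. The group was chosen after values were seen and takes in protein-coding genes and hosts of snoRNAs. The model need not be the counted entry, so the group does not stand for small RNAs in counted exons. Of its 140 genes 36 were higher and 50 lower in RNAome libraries (25.7% and 35.7%, against 23.5% and 25.2% of genes outside the group). Rabggtb, a subunit gene of Rab geranylgeranyl transferase, listed on a non-coding entry and overlapping Snord45c, was at 41605 CPM in RNAome and 50.8 CPM in mRNA libraries (log2 fold change 9.68 ± 0.36, adjusted p = 3.24e-12 by edgeR). Snord45c itself was at 41130 CPM in RNAome libraries, nearly the whole level of the Rabggtb entry. The rule for members takes the entry with the highest mean level, which favours entries of this kind. Rack1, a ribosome-associated scaffold gene listed with Snord95 and Snord96a, was at 7870 CPM in RNAome and 947.1 CPM in mRNA libraries (3.05 ± 0.21). Snord96a itself was at 33993 CPM in RNAome libraries, above Rack1. Tcp1, a chaperonin subunit gene, was at 1.56 ± 0.16 and Eif4a1, a translation initiation helicase gene, at 1.49 ± 0.18. Other members were lower, among them the ribosomal protein genes Rpl7a, listed with a SNORD36 gene (-3.63 ± 0.24), and Rps2, listed with Snora64 (-2.01 ± 0.16). In RNAome libraries Rps2 was at 34.9 CPM, below the 200.6 CPM of Snora64. The part of snoRNA reads in these counts was not tested.

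Of the 1637 RefSeq entries that only the mRNA table lists, the median count was 7, 12 and 10 in mRNA control libraries 8.4.16, 8.5.16 and 8.6.16. The highest were Col1a1, a collagen gene and feeder fibroblast marker, with 237, 262 and 234 counts, and Bicra, a subunit gene of a BAF complex, with 174, 277 and 192.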
